A study of Mus musculus with 9 samples.

Results

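The cell cycle genes described here are 39 genes of the division cycle, found by symbol among the 49315 gene identifiers that each deposited table lists, and each symbol matched exactly 1 identifier. They were read in 3 classes by the phase their products serve, with 20 mitosis genes, 9 DNA replication genes and 10 genes of G1, the phase that precedes replication. RNA was taken from brown adipose tissue, the heat-producing fat depot, of male C57Bl/6J mice with diet-induced obesity. The treated mice (n = 5) received cotadutide, a peptide drug that activates the receptors for GLP-1 and for glucagon, and the control mice (n = 4) received vehicle, in both cases by daily injection under the skin for 28 days. All 9 mice were on a 60% high fat diet, were 14 weeks old before an acclimation of 3 weeks, and were housed singly below thermoneutrality. The dose of cotadutide is not given in the sources used here, and no lean or untreated group was part of the comparison. Each library came from 30 mg of whole tissue of a separate mouse, and the fat layer was taken off after homogenisation, so the RNA mixes adipocytes with all other cells of the depot.

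Library totals averaged 15.9 ± 3.58 M counts (M for mega, SD, n = 5) in cotadutide mice and 20.8 ± 4.05 M counts (SD, n = 4) in vehicle mice, a difference with p = 0.127 in an exact two-sided permutation test. Levels are given in CPM, a gene's counts divided by the scaled library total in M, with SD over 5 cotadutide mice and 4 vehicle mice. Genes were tested with edgeR's quasi-likelihood test on counts, and "called" means an adjusted p under 0.05 after Benjamini-Hochberg adjustment over the 14747 genes that passed a low-count filter. Folds and log2 fold changes are cotadutide over vehicle, and ± after a log2 fold change is its standard error (SE). A pair of libraries stood apart. Vehicle mouse 4 had the highest summed skeletal muscle markers (51790 CPM, where vehicle mice 1 to 3 had 24540 to 29770 CPM). Cotadutide mouse 3 had 35.8 CPM of B cell markers, where the other 4 cotadutide mice had 1.70 to 2.89 CPM. Calls that 1 of these mice decided are given with and without it.

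Cells divide by passing from G1 through replication of their DNA to mitosis. In G1, D-type cyclins with Cdk4 inactivate the retinoblastoma protein and so release E2F factors, which switch on replication genes, while CDK inhibitors hold the cycle back. Mitosis genes are switched on later, largely through a promoter element called the cell cycle genes homology region (CHR), to which the DREAM repressor complex and its activating counterpart with Foxm1 bind. In adult brown fat most mature adipocytes do not divide, and dividing cells are found among precursor, endothelial and immune cells.

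Promoter windows of 7 members from the 3 classes are shown to let these elements, and their absence in 2 of the windows, be read beside the values. RefSeq promoter windows (build GRCm38.p6, 250 bases before to 50 after a gene's start) were found for 33 of the 39 genes, as 38 windows. Each was searched on both strands for the CHR (TTTGAA, or the variant TTCGAA), for the CCAAT box (CCAAT) and for 4 spellings of the E2F element (TTTCCCGC, TTTCGCGC, TTTGCCGC and TTTGGCGC). Below, capitals mark these matches or their reverse complements, on the strand of the gene, in the 200 bases from 170 before to 30 after the start.
Ccnb2: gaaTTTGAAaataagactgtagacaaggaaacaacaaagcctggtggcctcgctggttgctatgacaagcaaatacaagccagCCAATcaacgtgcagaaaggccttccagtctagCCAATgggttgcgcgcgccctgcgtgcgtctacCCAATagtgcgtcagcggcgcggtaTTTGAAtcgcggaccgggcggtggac
Cdk1: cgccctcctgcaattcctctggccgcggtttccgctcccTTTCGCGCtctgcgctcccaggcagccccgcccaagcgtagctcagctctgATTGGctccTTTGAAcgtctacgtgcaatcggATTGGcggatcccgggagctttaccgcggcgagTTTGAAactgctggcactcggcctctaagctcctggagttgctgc
Top2a: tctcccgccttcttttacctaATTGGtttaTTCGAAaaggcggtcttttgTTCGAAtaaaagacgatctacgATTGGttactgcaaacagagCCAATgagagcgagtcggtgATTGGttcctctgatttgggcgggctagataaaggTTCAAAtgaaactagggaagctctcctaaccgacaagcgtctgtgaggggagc
Mki67: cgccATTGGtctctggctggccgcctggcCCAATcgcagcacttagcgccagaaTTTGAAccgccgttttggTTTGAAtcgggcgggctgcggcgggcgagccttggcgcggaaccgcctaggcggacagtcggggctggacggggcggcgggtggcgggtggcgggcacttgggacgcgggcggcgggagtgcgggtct
Birc5: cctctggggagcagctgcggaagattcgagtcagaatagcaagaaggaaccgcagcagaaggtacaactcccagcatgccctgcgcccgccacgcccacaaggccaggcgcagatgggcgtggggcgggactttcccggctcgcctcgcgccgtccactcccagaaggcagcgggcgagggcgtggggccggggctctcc
Mcm6: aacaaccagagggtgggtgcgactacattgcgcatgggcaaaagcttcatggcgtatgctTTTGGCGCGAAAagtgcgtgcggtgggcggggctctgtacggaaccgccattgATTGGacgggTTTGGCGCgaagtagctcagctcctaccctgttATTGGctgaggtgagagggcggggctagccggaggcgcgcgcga
Cdkn2c: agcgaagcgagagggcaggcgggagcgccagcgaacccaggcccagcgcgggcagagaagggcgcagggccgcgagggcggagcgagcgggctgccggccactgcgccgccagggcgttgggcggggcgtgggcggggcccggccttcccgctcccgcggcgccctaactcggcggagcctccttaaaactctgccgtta
These windows lie at chr9:70421525-70421724 (minus strand), chr10:69352883-69353082 (minus strand), chr11:99024160-99024359 (minus strand), chr7:135716350-135716549 (minus strand), chr11:117849067-117849266 (plus strand), chr1:128359676-128359875 (minus strand) and chr4:109666727-109666926 (minus strand). Cdkn2c had a window for another start too, which held a CCAAT box. In Mcm6 a forward and a reverse E2F match overlap. The stretches of Birc5 and of this Cdkn2c start hold no match.

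A CHR in either spelling was present in 15 of 18 mitosis windows (83.3%), 2 of 9 replication windows (22.2%) and none of 11 G1 windows, against 19.2% of all 32851 windows. The windows of Prc1 overlap each other. A CCAAT box was present in 94.4% of mitosis windows, all 9 replication windows and 36.4% of G1 windows, against 37.4% of all windows. The E2F letters were present in 5.56% of mitosis windows, 44.4% of replication windows and 9.09% of G1 windows, against 2.26% of all windows. Such matches describe the letters and do not show that a factor binds.

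The mitosis genes were lower in cotadutide mice, and most replication genes and most G1 genes were not called. Summed over its 20 genes, the mitosis class stood at 16.5, 10.2, 14.9, 12.5 and 13.0 CPM in cotadutide mice 1 to 5, against 40.4, 44.8, 36.0 and 19.5 CPM in vehicle mice 1 to 4. Every cotadutide library was below every vehicle library, and vehicle mouse 4 was the nearest to them. The means were 13.4 ± 2.40 CPM in cotadutide mice and 35.2 ± 11.04 CPM in vehicle mice, which is 2.62 times lower with cotadutide. In bulk tissue, fewer cells of a type and less RNA per cell cannot be told apart.

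The 9 replication genes summed to 104.4, 98.7, 106.6, 101.0 and 101.2 CPM in cotadutide mice, against 115.8, 118.6, 108.1 and 103.4 CPM in vehicle mice. The groups overlapped through vehicle mouse 4, and the means of 102.4 ± 3.14 CPM in cotadutide mice and 111.5 ± 7.002 CPM in vehicle mice differed by 1.09 times. Per 100 CPM of replication mRNA there were 10.3 to 15.8 CPM of mitosis mRNA in cotadutide mice and 18.9 to 37.8 CPM in vehicle mice, with no overlap. Most of the replication sum came from Pcna, Rrm1 and Mcm7 (means of 35.8, 23.6 and 22.2 CPM in cotadutide mice). The sum and this ratio therefore say little about the less abundant replication genes. The 10 G1 genes summed to 418.7, 423.9, 520.5, 480.7 and 408.5 CPM in cotadutide mice, against 305.3, 299.1, 304.7 and 431.2 CPM in vehicle mice. Here vehicle mouse 4 lay within the cotadutide range, and the other 3 vehicle mice lay below it. The CDK inhibitors Cdkn1a and Cdkn2c carried the difference in that sum, since the other 8 G1 genes summed to 184.7 ± 6.84 CPM in cotadutide mice and 189.9 ± 7.36 CPM in vehicle mice.

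**Figure D1:**
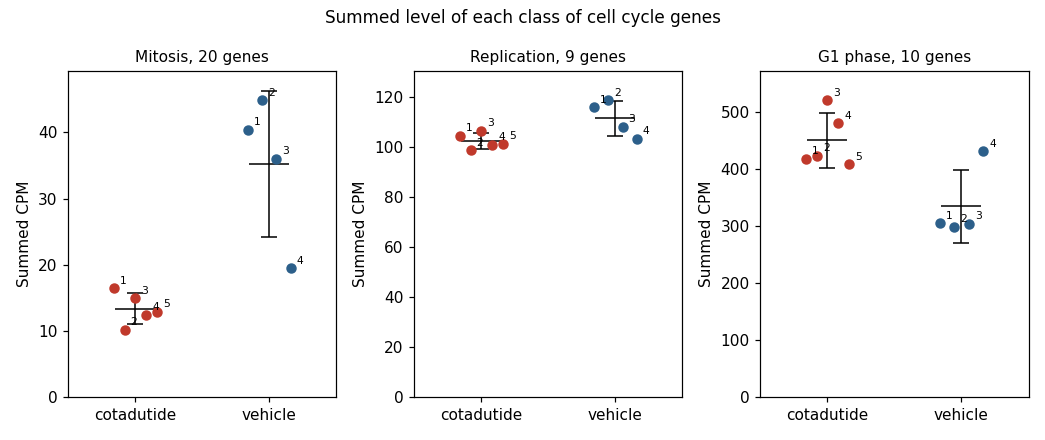
Summed CPM (vertical axes) of the 20 mitosis, 9 replication and 10 G1 genes in each library, with cotadutide mice in red and vehicle mice in blue, the mouse number beside each point, and lines for the mean ± SD. The mitosis sums do not overlap between groups, the replication sums overlap through vehicle mouse 4, and the G1 sum of vehicle mouse 4 (431.2 CPM) lies among the cotadutide mice.

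Of the 39 genes, 35 passed the low-count filter, and the 4 that did not (Bub1, Aurkb, Cenpf and Hmmr) are mitosis genes. The filter asks for a minimum level in as many libraries as the smaller group holds, so a gene can pass on vehicle mice alone. Birc5 (at most 0.440 CPM in cotadutide mice, at least 0.943 CPM in vehicle mice), Ccnb2 and Cenpe passed that way. Near the filter this can favour genes that are lower with cotadutide among those tested. The 4 genes left out also had lower means in cotadutide mice. With no filter on low counts, the median log2 fold change of all 20 mitosis genes was -1.55. Cotadutide mice had 16 of the 35 called lower and 2 called higher, where 9.34% of all tested genes were called lower and 9.31% higher. By class, 12 of the 16 tested mitosis genes were called lower and none higher (all 16 log2 fold changes were negative), with 2 lower and 1 higher of 9 replication genes, and 2 lower and 1 higher of 10 G1 genes. The median log2 fold change was -1.46 over the 16 tested mitosis genes, -0.36 over the replication genes and 0.01 over the G1 genes, beside 0.003 over all tested genes. The groups did not overlap, with cotadutide lower, for 10 of the 35 tested members, and this held for 7.79% of all tested genes. They did not overlap in the other direction for Mcm7 and Cdkn2c, as for 8.06% of all tested genes.

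DESeq2 called 16 members lower and 2 higher, where it called 12.1% of all genes lower and 11.8% higher. It gave no adjusted p to Cenpe and Plk1, and its 16 hold Rrm2 in place of Cenpe. With limma-voom 15 members were called lower and 3 higher, where it called 10.0% of all genes lower and 10.2% higher. These calls depended on which mice were included. Without vehicle mouse 1, edgeR called 2 members lower (Birc5 and Tpx2) and 1 higher (Cdkn2c), where 0.621% of all tested genes were called lower and 0.317% higher. Without vehicle mouse 2 it called the same 2 lower, with Mcm7 and Cdkn2c higher, where 0.708% of all tested genes were called lower and 0.283% higher. Without vehicle mouse 3 it called 10 members lower, beside 3.17% of all tested genes, and without cotadutide mouse 2 it also called 10, beside 2.38%. It called 23 of 37 tested members lower without vehicle mouse 4, beside 10.7% of all tested genes. The 37 include Cenpf and Hmmr, which passed the filter there through vehicle mice alone, and both were among the 23. Without vehicle mouse 4 and cotadutide mouse 3 together, an alternative chosen after seeing the data, it called 22 members lower and 3 higher, beside 9.55% and 12.7% of all tested genes. Cenpf and Hmmr entered in the same way and were among the 22. The median log2 fold change of the tested mitosis genes stayed between -1.36 and -1.69 over the fits that leave out 1 of these 5 libraries, and none of these fits turned the sign of a called member.

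Mki67 encodes the proliferation antigen Ki-67, which coats mitotic chromosomes. It had 1.85, 0.385, 0.711, 0.495 and 1.43 CPM in cotadutide mice, against 6.49, 5.96, 5.42 and 1.24 CPM in vehicle mice. Vehicle mouse 4 fell among the cotadutide mice, and the other 3 vehicle mice were far above them. Mki67 was 4.93 times lower with cotadutide (log2 fold change -2.30 ± 0.52, edgeR adjusted p = 0.0204). Leaving out vehicle mouse 1, 2 or 3 or cotadutide mouse 2 ended this call, with edgeR adjusted p from 0.0542 to 0.0699, as did an edgeR fit with no filter on low counts (adjusted p = 0.0663). Top2a, the topoisomerase that untangles sister chromatids, had 1.54, 0.833, 1.21, 0.826 and 0.952 CPM in cotadutide mice, against 5.37, 4.28, 4.06 and 1.51 CPM in vehicle mice. Again the groups overlapped only through vehicle mouse 4, and Top2a was 3.52 times lower (log2 fold change -1.82 ± 0.34, edgeR adjusted p = 0.0147). Without vehicle mouse 1 its adjusted p was 0.0518, and without vehicle mouse 2 it was 0.0503.

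The mitotic kinase Cdk1 and 2 of the 3 cyclins of this class were called lower. Cdk1, the kinase that drives entry into mitosis, had 0.514, 0.256, 0.854, 0.606 and 1.05 CPM in cotadutide mice, against 2.45, 2.10, 1.41 and 1.03 CPM in vehicle mice. Only cotadutide mouse 5 reached the lowest vehicle value, and Cdk1 was 2.79 times lower (log2 fold change -1.48 ± 0.37, edgeR adjusted p = 0.0240). Its call ended on leaving out vehicle mouse 1, vehicle mouse 2 or cotadutide mouse 2, with edgeR adjusted p from 0.0547 to 0.0808. Ccnb2, a B-type cyclin partner of Cdk1, had 0.514, 0.449, 0.142, 0.275 and 0.190 CPM in cotadutide mice, against 1.44, 1.44, 1.06 and 0.702 CPM in vehicle mice, without overlap (log2 fold change -1.82 ± 0.37, edgeR adjusted p = 0.0163). Ccna2, the cyclin of S phase and G2, had 1.08, 0.833, 1.21, 0.771 and 1.05 CPM in cotadutide mice, against 2.57, 2.75, 2.00 and 1.35 CPM in vehicle mice. It was 2.22 times lower without overlap (edgeR adjusted p = 0.0186), and 510 of its 4083 exon bases are shared with the antisense gene Exosc9. Ccnb1, the other B-type cyclin, had 0.463, 0.320, 0.711, 0.275 and 0.476 CPM in cotadutide mice, against 1.09, 1.81, 0.707 and 0.216 CPM in vehicle mice. Its log2 fold change of -1.14 (SE 0.50) was not called (edgeR adjusted p = 0.127), and vehicle mouse 4 was below every cotadutide mouse. It was called when that mouse was left out, differing by -1.45 on the log2 scale (edgeR adjusted p = 0.0195). Cdc20, the activator of the anaphase-promoting complex, had 0.411, 0.705, 0.711, 0.385 and 0.190 CPM in cotadutide mice, against 1.28, 1.60, 1.36 and 1.08 CPM in vehicle mice. It was 2.71 times lower without overlap (edgeR adjusted p = 0.0184). The calls of Ccnb2, Ccna2 and Cdc20 ended without vehicle mouse 1 (edgeR adjusted p from 0.0564 to 0.0650) and without vehicle mouse 2 (edgeR adjusted p from 0.0536 to 0.0597).

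Among genes of the spindle and of the kinetochore, where chromosomes attach to it, 6 were called lower, and they differed in how far the call rested on single mice. Birc5 encodes survivin, a subunit of the chromosomal passenger complex, and had 0.3601, 0.256, 0.285, 0.440 and 0.190 CPM in cotadutide mice, against 1.75, 1.36, 0.943 and 1.08 CPM in vehicle mice. Tpx2, a spindle assembly factor that activates Aurora A, had 0.926, 0.769, 0.925, 0.826 and 0.761 CPM in cotadutide mice, against 2.02, 3.33, 2.18 and 1.62 CPM in vehicle mice. Neither gene's groups overlapped. Birc5 was 4.02 times lower (log2 fold change -2.01 ± 0.31, edgeR adjusted p = 0.0128) and Tpx2 was 2.71 times lower (log2 fold change -1.44 ± 0.25, edgeR adjusted p = 0.0143). These were the 2 members called lower in all 9 fits that leave out 1 library, with a highest edgeR adjusted p of 0.0460 for each. Birc5 passed the low-count filter only through its vehicle mice.

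Cenpe, a kinetochore motor, had 0.3601, 0.0641, 0.427, 0.220 and 0.286 CPM in cotadutide mice, against 1.01, 1.11, 0.766 and 0.702 CPM in vehicle mice, and was 3.30 times lower without overlap (edgeR adjusted p = 0.0184). Its adjusted p was 0.0601 without vehicle mouse 1 and 0.0570 without vehicle mouse 2 in edgeR. Kif11, the motor that pushes spindle poles apart, had 0.771, 0.320, 0.498, 0.385 and 0.666 CPM in cotadutide mice, against 2.22, 2.18, 2.00 and 0.432 CPM in vehicle mice. Vehicle mouse 4 lay inside the cotadutide range of Kif11, which was 3.25 times lower (edgeR adjusted p = 0.0263). Its call ended on leaving out vehicle mouse 1, 2 or 3 or cotadutide mouse 2, 3 or 4, with edgeR adjusted p from 0.0512 to 0.0816, and limma-voom did not call it (adjusted p = 0.0704). Prc1, which bundles the midzone of the spindle, had 1.39, 0.897, 1.28, 1.05 and 0.381 CPM in cotadutide mice, against 1.98, 3.37, 2.12 and 1.46 CPM in vehicle mice. Its groups did not overlap (2.18 times lower, edgeR adjusted p = 0.0361), and leaving out any of the same 6 mice ended the call (edgeR adjusted p from 0.0527 to 0.116). Of its 8225 exon bases, 911 are shared with the antisense gene Rccd1. Racgap1, a centralspindlin subunit needed for cytokinesis, had 1.03, 0.449, 1.35, 0.716 and 0.476 CPM in cotadutide mice, against 3.07, 2.22, 2.83 and 1.30 CPM in vehicle mice. Cotadutide mouse 3 passed vehicle mouse 4, and Racgap1 was 2.88 times lower (edgeR adjusted p = 0.0190), a call that ended without vehicle mouse 1, 2 or 3 (edgeR adjusted p from 0.0529 to 0.0666).

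Besides Ccnb1, 3 tested mitosis genes were not called. Aurka, the Aurora kinase of spindle poles, had a log2 fold change of -0.45 (SE 0.23, edgeR adjusted p = 0.183). Bub1b, a spindle checkpoint protein, had a log2 fold change of -0.51 (SE 0.28, edgeR adjusted p = 0.210). Plk1, the polo kinase, had a log2 fold change of -0.46 (SE 0.35, edgeR adjusted p = 0.364). In each of these genes the groups overlapped, and Aurka stood at 1.47 to 2.38 CPM in cotadutide mice and 1.87 to 3.87 CPM in vehicle mice. Bub1b was called with vehicle mouse 4 left out, differing by -0.74 on the log2 scale (edgeR adjusted p = 0.0247).

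The 4 untested mitosis genes are reported by counts, with exact Poisson intervals at 95% on the summed counts that cover counting error only. Cenpf, a kinetochore protein, had 6, 0, 0, 0 and 3 counts in cotadutide mice, against 33, 33, 21 and 10 counts in vehicle mice. The groups did not overlap, and the pooled level was 0.113 CPM (0.0518 to 0.215) in cotadutide mice and 1.16 CPM (0.944 to 1.42) in vehicle mice. Hmmr, a spindle-binding protein and hyaluronan receptor, had 12 counts in cotadutide mice and 51 in vehicle mice. Bub1, the checkpoint kinase, had 10 counts in cotadutide mice and 33 in vehicle mice, and Aurkb, the kinase of the chromosomal passenger complex, had 20 in cotadutide mice and 60 in vehicle mice. In an edgeR fit with no filter on low counts (28583 genes), Cenpf (adjusted p = 0.00767) and Hmmr (adjusted p = 0.0179) were called lower, while Bub1 (adjusted p = 0.102) and Aurkb (adjusted p = 0.0522) were not. That fit called 13 of the 20 mitosis genes lower and none higher, where 4.42% of all its genes were called lower and 3.15% higher. All 20 mitosis genes had a lower mean in cotadutide mice, and vehicle mouse 4 was the lowest vehicle library in 17 of the 20, the exceptions being Aurka, Aurkb and Birc5.

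**Figure D2:**
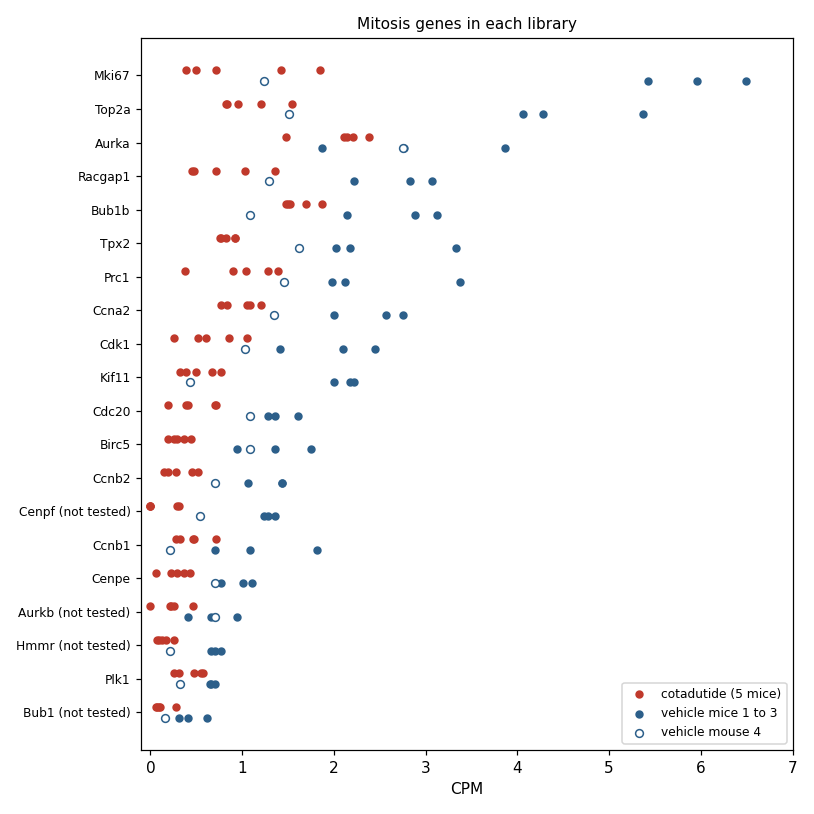
CPM (horizontal axis) of the 20 mitosis genes in each library, ordered by the vehicle mean, with cotadutide mice in red above vehicle mice in blue and vehicle mouse 4 as an open circle. Vehicle mice 1 to 3 lie to the right of the cotadutide mice for most genes, with vehicle mouse 4 between them or among the cotadutide mice.

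Of the 9 replication genes, 8 had negative log2 fold changes and 1 (Mcm7) a positive one, though most were not called. The Mcm2 to Mcm7 proteins form the ring-shaped helicase that opens DNA, and among their genes only Mcm7 had a positive log2 fold change. Mcm7 had 22.3, 22.3, 22.4, 22.8 and 20.9 CPM in cotadutide mice, against 15.1, 17.4, 15.3 and 17.4 CPM in vehicle mice. It rose 1.36-fold without overlap (log2 fold change 0.44 ± 0.08, edgeR adjusted p = 0.0147). The call was kept in 8 of the 9 fits that leave out 1 library, and without vehicle mouse 1 the edgeR adjusted p was 0.0518. Of its 4426 exon bases, 321 are shared with the antisense gene Ap4m1, which itself rose 1.34-fold (edgeR adjusted p = 0.0202). Another 64 are shared with the antisense gene Cops6, which averaged 2323 counts per library where Mcm7 averaged 347.6. Cops6 was not called (log2 fold change 0.23, edgeR adjusted p = 0.128). Without a known strand setting, reads of the shared bases cannot be told apart. Mcm6 had 4.53, 4.23, 4.06, 3.63 and 3.90 CPM in cotadutide mice, against 5.91, 6.83, 7.42 and 5.19 CPM in vehicle mice. It was 1.55 times lower without overlap (log2 fold change -0.63 ± 0.14, edgeR adjusted p = 0.0188), and leaving out vehicle mouse 1, 2 or 3 ended the call, with edgeR adjusted p from 0.0542 to 0.0596. The other helicase genes were not called, with log2 fold changes of -0.55 for Mcm5 (edgeR adjusted p = 0.155), -0.43 for Mcm3 (edgeR adjusted p = 0.101), -0.36 for Mcm2 (edgeR adjusted p = 0.205) and -0.14 for Mcm4 (edgeR adjusted p = 0.483). Mcm3 was called lower with vehicle mouse 4 left out (edgeR adjusted p = 0.0344), and Mcm5 with vehicle mouse 4 and cotadutide mouse 3 both left out (edgeR adjusted p = 0.0223).

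Rrm1 and Rrm2 encode the subunits of ribonucleotide reductase, which makes deoxynucleotides. Rrm1 had 25.2, 21.4, 22.3, 25.5 and 23.8 CPM in cotadutide mice, against 31.1, 28.2, 26.8 and 27.6 CPM in vehicle mice, and was 1.20 times lower without overlap (log2 fold change -0.27 ± 0.08, edgeR adjusted p = 0.0461). Its call ended on leaving out vehicle mouse 1, 2 or 3 or cotadutide mouse 2, 3 or 5, with edgeR adjusted p from 0.0520 to 0.149, and without a filter on low counts its adjusted p was 0.0512. Rrm2, the subunit made mainly in S phase, had 1.34, 1.03, 0.640, 1.16 and 1.14 CPM in cotadutide mice, against 2.22, 3.00, 1.77 and 1.08 CPM in vehicle mice. Its log2 fold change of -0.93 (SE 0.31) missed the threshold (edgeR adjusted p = 0.0536), and vehicle mouse 4 lay among the cotadutide mice. It was called lower without vehicle mouse 4 (edgeR adjusted p = 0.0128), without cotadutide mouse 1 (edgeR adjusted p = 0.0479), with no filter on low counts (edgeR adjusted p = 0.0413) and by DESeq2 (adjusted p = 0.0376). Pcna, the sliding clamp of DNA polymerases, had 35.4, 36.6, 38.1, 33.1 and 35.6 CPM in cotadutide mice, against 40.4, 41.6, 39 and 33.9 CPM in vehicle mice. The groups overlapped, and its log2 fold change was -0.12 (SE 0.08, edgeR adjusted p = 0.318).

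Among the G1 genes, the drivers Ccnd1 and E2f1 were lower and the inhibitor Cdkn2c was higher. Ccnd1, cyclin D1, had 5.61, 3.01, 3.70, 3.36 and 4.57 CPM in cotadutide mice, against 16.1, 16.5, 12.6 and 4.97 CPM in vehicle mice. Vehicle mouse 4 lay within the cotadutide range and the other vehicle mice far above it. Ccnd1 was 3.11 times lower (log2 fold change -1.64 ± 0.32, edgeR adjusted p = 0.0163), and the call ended on leaving out vehicle mouse 1, vehicle mouse 2 or cotadutide mouse 2 (edgeR adjusted p from 0.0506 to 0.0573). It shares 1100 of 4709 exon bases with an antisense gene, LTO1. E2f1, an activating E2F factor, had 2.16, 0.962, 1.07, 1.38 and 1.90 CPM in cotadutide mice, against 4.24, 3.99, 3.42 and 2.32 CPM in vehicle mice. It was 2.34 times lower without overlap (log2 fold change -1.23 ± 0.27, edgeR adjusted p = 0.0184), though not called without vehicle mouse 1 (edgeR adjusted p = 0.0621) or 2 (edgeR adjusted p = 0.0545).

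Cdkn2c encodes an INK4 inhibitor that blocks Cdk4 and Cdk6. It had 92.2, 116.9, 114.6, 110.4 and 105.9 CPM in cotadutide mice, against 61.8, 54.3, 72.5 and 78.5 CPM in vehicle mice. The groups did not overlap, and Cdkn2c rose 1.62-fold (log2 fold change 0.70 ± 0.12, edgeR adjusted p = 0.0140). It was called in all 9 fits that leave out 1 library. Cdkn1a encodes the CDK inhibitor that p53 induces, and had 139.9, 130.5, 215.1, 191.7 and 111.5 CPM in cotadutide mice, against 48.2, 52.9, 39.1 and 173.7 CPM in vehicle mice. Vehicle mice 1 to 3 lay below every cotadutide mouse, and vehicle mouse 4 lay inside their range. Its log2 fold change of 1.01 (SE 0.42) was not called by edgeR (adjusted p = 0.108). Without vehicle mouse 4 its log2 fold change was 1.76 and it was called (edgeR adjusted p = 0.00223). With all mice limma-voom called it too (adjusted p = 0.0439).

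The other G1 genes were not called with all mice. Ccne1, cyclin E1, had 1.39, 1.09, 1.49, 0.936 and 1.14 CPM in cotadutide mice, against 1.98, 1.77, 2.12 and 1.19 CPM in vehicle mice (log2 fold change -0.55, edgeR adjusted p = 0.121). With vehicle mouse 4 left out it was called lower (edgeR adjusted p = 0.0493). Cdk2, the kinase partner of cyclin E, differed by 0.24 on the log2 scale (edgeR adjusted p = 0.198), and Cdk4 by 0.20 (edgeR adjusted p = 0.161), which was called higher with vehicle mouse 4 left out (edgeR adjusted p = 0.0446). Cdk4 shares 604 of 3249 exon bases with the antisense gene Tspan31. The D-type cyclins other than Ccnd1 had log2 fold changes of -0.21 for Ccnd2 (edgeR adjusted p = 0.409) and 0.06 for Ccnd3 (edgeR adjusted p = 0.565). With cotadutide mouse 1 left out Ccnd2 was called lower (edgeR adjusted p = 0.0326), and with a muscle or macrophage marker score as a covariate its log2 fold change was positive (0.19 and 0.24). Cdkn1b, another CDK inhibitor, differed by -0.04 on the log2 scale (edgeR adjusted p = 0.817), with 36.8 ± 2.99 CPM in cotadutide mice and 37.7 ± 4.26 CPM in vehicle mice.

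**Figure D3:**
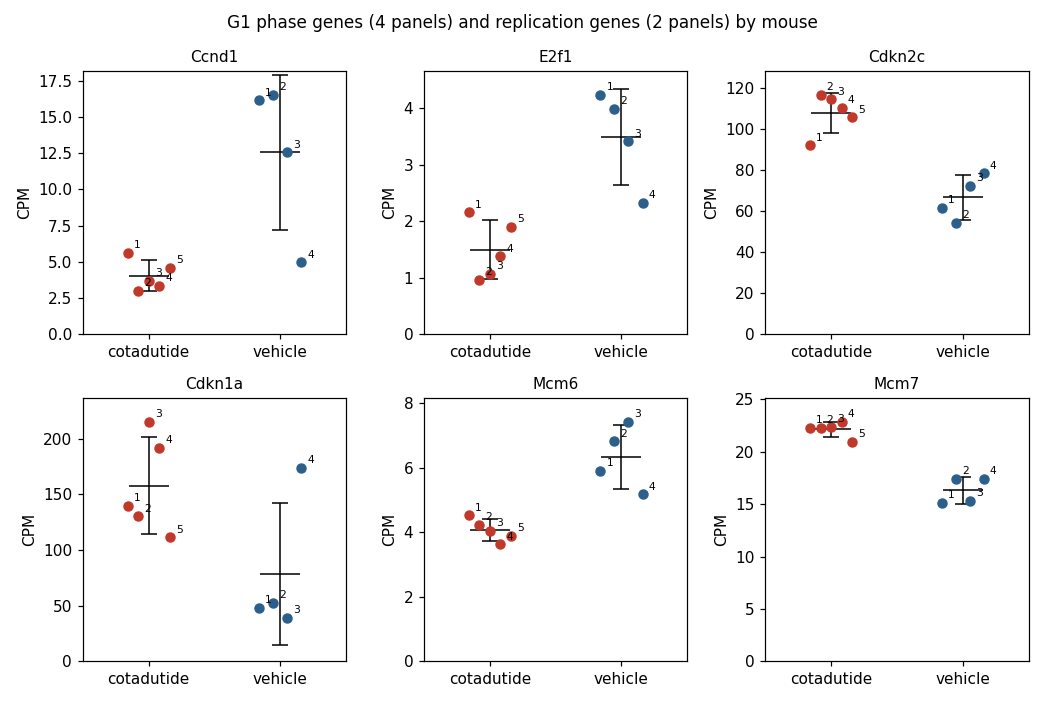
CPM (vertical axes) of the G1 genes Ccnd1, E2f1, Cdkn2c and Cdkn1a and of the replication genes Mcm6 and Mcm7 in each library, with cotadutide mice in red, vehicle mice in blue, mouse numbers beside the points and lines for the mean ± SD. Vehicle mouse 4 (4.97 CPM of Ccnd1 and 173.7 CPM of Cdkn1a) sits with the cotadutide mice, while Cdkn2c and Mcm7 separate the groups.

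**Figure D4:**
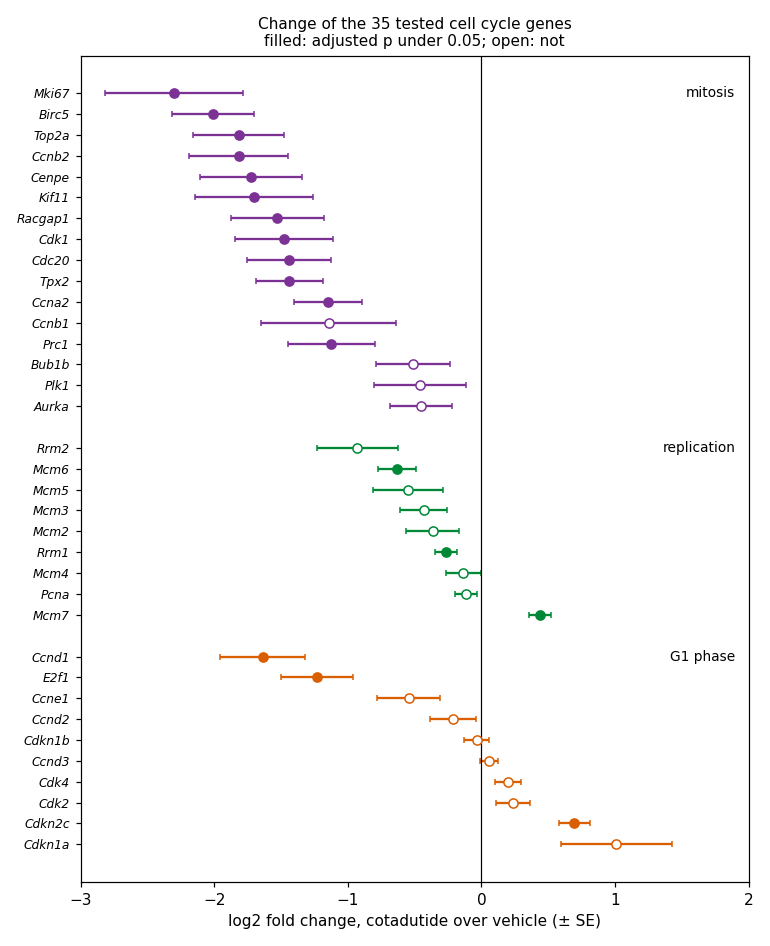
The log2 fold change, cotadutide over vehicle, with its SE (horizontal axis) for the 35 tested cell cycle genes, mitosis in purple, replication in green and G1 in orange, filled where the edgeR adjusted p was under 0.05. The 16 mitosis genes lie between -2.30 and -0.45, the replication genes between -0.93 and 0.44 and the G1 genes between -1.64 and 1.01.

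On a scale that allows genes to be compared, CPM per kilobase of the file's exon length, the mitosis genes were the least abundant class. Their median level was 0.116 CPM per kb in cotadutide mice and 0.366 CPM per kb in vehicle mice, from Cenpf at the bottom to Aurka at the top. The median level of the replication genes was 1.02 CPM per kb in cotadutide mice and 1.37 CPM per kb in vehicle mice, with Pcna highest. That of the G1 genes was 6.37 CPM per kb in cotadutide mice and 5.75 CPM per kb in vehicle mice, with Cdkn1a highest at 71.0 CPM per kb in cotadutide mice and 35.3 CPM per kb in vehicle mice. Counts behind the mitosis genes were accordingly low, with means of 4.78 to 55.9 counts per library.

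Further genes of the cycle and of the p53 response, 135 in all, were listed from textbook knowledge. Of the 114 that passed the low-count filter, 11.4% were called lower and 7.895% higher, beside 9.34% and 9.31% of all tested genes. With no filter on low counts, edgeR called 21 of the 135 lower and 5 higher, beside 4.42% and 3.15% of all genes in that fit. Of 50 further mitosis genes, 32 were tested, and 6 of these (18.75%) were called lower and none higher, with a median log2 fold change of -0.34. The filter left out 18 of the 50, and 45 of the 50 had a lower mean in cotadutide mice. Spc25, a subunit of the Ndc80 kinetochore complex, averaged 0.427 ± 0.170 CPM in cotadutide mice and 1.27 ± 0.277 CPM in vehicle mice (edgeR adjusted p = 0.0163). Cdca8, the borealin subunit that binds survivin, averaged 0.570 ± 0.187 CPM in cotadutide mice and 1.58 ± 0.442 CPM in vehicle mice (edgeR adjusted p = 0.0167). Kif22, a chromosome-arm motor, averaged 0.808 ± 0.189 CPM in cotadutide mice and 1.85 ± 0.446 CPM in vehicle mice (edgeR adjusted p = 0.0172). None of these 3 genes overlapped between groups. The others called lower, named after their values were seen, were Tacc3, Foxm1 and Ube2c. Tacc3, a spindle microtubule protein, was 1.58 times lower (edgeR adjusted p = 0.0318). Foxm1, the factor that activates mitosis genes, averaged 0.375 ± 0.158 CPM in cotadutide mice and 1.21 ± 0.444 CPM in vehicle mice without overlap (3.23 times lower, edgeR adjusted p = 0.0184). Ube2c, a ubiquitin-conjugating enzyme of the anaphase-promoting complex, had 54.2, 29.2, 16.01, 31.2 and 59.0 CPM in cotadutide mice, against 56.3, 89.5, 65.0 and 145.6 CPM in vehicle mice (edgeR adjusted p = 0.0431). It shares 592 of 2600 exon bases with the antisense muscle gene Tnnc2, which had 624.8, 252.8, 164.7, 302.5 and 548.8 CPM in cotadutide mice, against 579.4, 889.9, 597.6 and 1262 CPM in vehicle mice.

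Of 45 further replication genes, 44 were tested, with 2 called lower (4.545%) and 5 higher (11.36%), where all tested genes had 9.34% lower and 9.31% higher, and a median log2 fold change of -0.03. Among those that rose were Rpa3, a subunit of the single-strand binding protein (1.42-fold, edgeR adjusted p = 0.0167), Gmnn, the licensing inhibitor geminin (1.58-fold, edgeR adjusted p = 0.0232), and Gins1, of the helicase complex (1.84-fold, edgeR adjusted p = 0.0240). Chaf1a, a histone chaperone subunit, was 1.85 times lower (edgeR adjusted p = 0.0263), and Pole, the catalytic subunit of a replicative polymerase, was 1.92 times lower (edgeR adjusted p = 0.0441). Of 28 further G1 genes, 26 were tested, with 2 lower (7.692%) and 4 higher (15.38%), beside the same shares of all tested genes. E2f6, a repressive E2F factor, had 40.4, 31.9, 28.3, 35.01 and 40.2 CPM in cotadutide mice, against 53.1, 52.2, 52.7 and 52.5 CPM in vehicle mice. Its groups were clear of each other, and it was 1.498 times lower (edgeR adjusted p = 0.0145). E2f3, an activating E2F factor, was 1.62 times lower (edgeR adjusted p = 0.0461). The inhibitors Cdkn1c (1.60-fold, edgeR adjusted p = 0.0298) and Cdkn2d (1.29-fold, edgeR adjusted p = 0.0385) rose, as did the phosphatase gene Cdc25a (1.51-fold, edgeR adjusted p = 0.0250).

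Of 12 p53 target genes other than Cdkn1a, 3 were called lower and none higher, with a median log2 fold change of -0.35. Ccng1, cyclin G1, had 176.1, 139.5, 114.6, 181.9 and 179.0 CPM in cotadutide mice, against 211.8, 239.9, 251.5 and 303.1 CPM in vehicle mice (1.59 times lower, edgeR adjusted p = 0.0185). Eda2r, a receptor of the TNF family, was 2.61 times lower (edgeR adjusted p = 0.0197). Mdm2, the ubiquitin ligase of p53, was 1.36 times lower (edgeR adjusted p = 0.0234). The groups did not overlap, with cotadutide lower, for these 3 of the 12, as for 7.79% of all tested genes. Of the 12 genes, 8 had negative log2 fold changes and 4 had positive ones, the sign of the uncalled Cdkn1a. The calls on all these further genes also rested on vehicle mice 1 and 2. Without vehicle mouse 1 edgeR called 1 of them (E2f6, lower), and without vehicle mouse 2 it called 2 (E2f6 and Eda2r, both lower). Without cotadutide mouse 3 Tacc3, Ube2c, Pole, E2f3, Cdkn1c, Cdkn2d and Cdc25a were not called, with edgeR adjusted p from 0.0560 to 0.0955, and without vehicle mouse 4 Ube2c was not (edgeR adjusted p = 0.131).

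Of the markers of cells that can divide, the macrophage sum and the fibroblast and progenitor sum had lower means in cotadutide mice, and the endothelial sum did not. Few T and B cell markers had enough counts to be tested, and their high cotadutide means rest on mouse 3. The 18 macrophage markers summed to 665.0, 321.6, 296.0, 356.5 and 418.0 CPM in cotadutide mice, against 800.0, 737.8, 487.2 and 694.1 CPM in vehicle mice. Of these markers 8 of 18 were called lower and none higher, beside 9.34% and 9.31% of all tested genes. The groups overlapped in the macrophage sum, where cotadutide mouse 1 passed vehicle mouse 3. The 8 fibroblast and progenitor markers summed to 1086, 664.9, 562.1, 759.7 and 910.9 CPM in cotadutide mice, against 1318, 851.6, 1129 and 1115 CPM in vehicle mice, with 1 called lower. Relative to these markers the groups overlapped. Mitosis mRNA stood at 2.48 to 5.05 CPM per 100 CPM of macrophage markers in cotadutide mice and 2.81 to 7.39 CPM in vehicle mice. That overlap came from vehicle mouse 4 (2.81 CPM) and cotadutide mouse 3 (5.05 CPM). Vehicle mice 1 to 3 had 5.05, 6.07 and 7.39 CPM, and the other cotadutide mice had 2.48 to 3.505 CPM. Per 100 CPM of fibroblast and progenitor markers it stood at 1.42 to 2.66 CPM in cotadutide mice and 1.75 to 5.26 CPM in vehicle mice. Here only vehicle mouse 4 (1.75 CPM) lay among the cotadutide mice, and vehicle mice 1 to 3 had 3.06, 5.26 and 3.19 CPM.

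The 15 skeletal muscle markers summed to 5734 to 21070 CPM in cotadutide mice and 24540 to 51790 CPM in vehicle mice, without overlap. Of these 8 of 15 were called lower, beside 9.34% of all tested genes. The 8 endothelial markers summed to 566.3 to 739.2 CPM in cotadutide mice and 512.9 to 667.0 CPM in vehicle mice, with 1 called higher. The 8 adipocyte markers, led by Fabp4 and Ucp1, summed to 24740 to 30360 CPM in cotadutide mice and 19170 to 22660 CPM in vehicle mice. Of these 4 were called higher, beside 9.31% of all tested genes. None of the 7 mural, 5 erythroid and 5 Schwann cell markers was called in either direction by edgeR. Most of the other immune markers had too few counts to be tested, and none was called among the 3 of 10 T and NK cell, 2 of 5 B cell and 2 of 5 neutrophil markers that were. No marker was at 0 in all libraries. With each library's muscle or macrophage score added to the model, edgeR called 0 of the 35 tested members, and 0 (0.00%) of all genes in either direction. The members at an unadjusted p under 0.05 numbered 20 with the muscle score and 13 with the macrophage score. The median log2 fold change of the tested mitosis genes was -1.92 with the muscle score and -1.26 with the macrophage score. The part of any of these cell types in the lower mitosis mRNA was not tested.

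**Figure D5:**
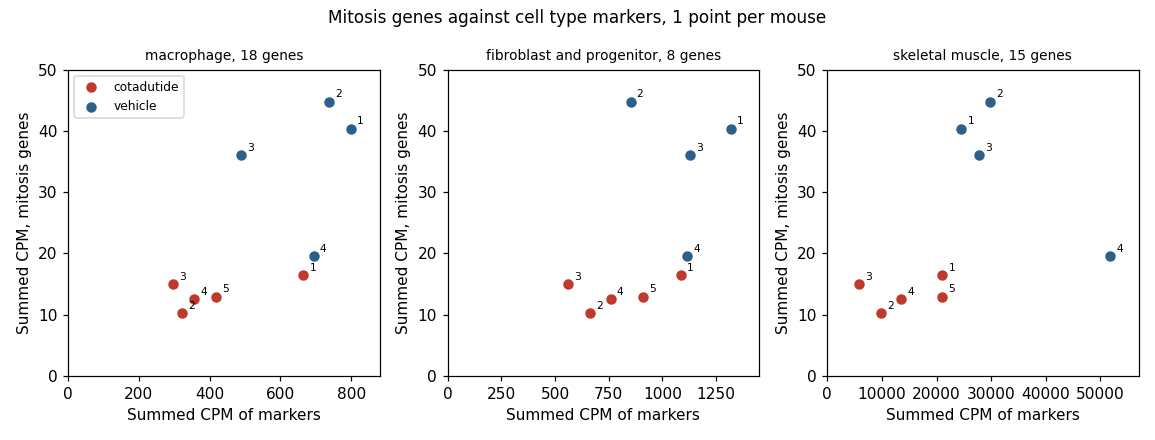
Summed CPM of the 20 mitosis genes (vertical axes) against the summed CPM of macrophage, fibroblast and progenitor, and skeletal muscle markers (horizontal axes), 1 point per mouse, cotadutide in red and vehicle in blue, with mouse numbers. The cotadutide mice span 10.2 to 16.5 CPM of mitosis mRNA and 296.0 to 665.0 CPM of macrophage markers. The vehicle mice span 19.5 to 44.8 CPM of mitosis mRNA and 487.2 to 800.0 CPM of macrophage markers. Vehicle mouse 4 (19.5 CPM) has the highest muscle markers.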

How the data were processed

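Polyadenylated RNA of brown adipose tissue was sequenced from NEBNext Ultra libraries, per the labels' protocols. The deposited tables, 1 per mouse, give unnormalised counts by Ensembl identifier. The authors used STAR 2.5.2b, Trimmomatic 0.36, bcl2fastq 2.17, Subread 1.5.2 with its featureCounts, and build mm10, per the submitters' processing notes. Neither the annotation release nor whether counting used strand is given in the sources used here, so reads of a gene and its antisense partner cannot be told apart. PolyA selection leaves out most other RNA.

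Coordinates and exon lengths are those of the tables, and such a length may be longer than the mature mRNA. Genes were tested with edgeR 4.0.16 (filterByExpr, TMM scaling, glmQLFit with robust dispersion, glmQLFTest, R 4.3.3) on all 9 libraries, with group as the only term. The 14747 genes left held 99.87% of counts, and the common biological coefficient of variation (17%) describes the spread between mice. Within groups, no pair of libraries agreed within counting noise (lowest chi-square per degree of freedom 12.22). The mice are separate animals, and their numbers in the labels did not pair them, since deviations of same-numbered mice correlated at -0.04 to 0.14. CPM used TMM-scaled totals. The edgeR fit was tested on simulated counts. Alternatives were DESeq2 1.42.0, limma-voom (limma 3.58.1), other filters and scalings, left-out libraries, a block for mouse number, and marker scores as covariates.

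Values in every library were given for called members, for the 3 of each class with the smallest adjusted p, and for Mki67, Top2a, Cdk1, Pcna and Cdkn1a. From each further list at most 3 genes per direction with the smallest adjusted p were named, apart from Tacc3, Foxm1 and Ube2c, added after their values were seen. The members and lists were chosen with earlier results of these data known, and the lists came from textbook knowledge. Promoter motifs were searched in RefSeq windows (GRCm38.p6).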

Additional observations from a re-analysis of the deposited data

Results flagged for a closer look

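Values of single libraries were set against the rest of their group for the 39 cell cycle genes, the summed classes and the summed marker lists. Of 108 such sets of 4 or 5 libraries, 11 had a highest or lowest library separated by a gap past Dixon's limit, where chance flags about 1 in 20. Vehicle mouse 4 was the library in 5 of them. In that mouse Cenpf stood at 0.540 CPM (other vehicle mice 1.24 to 1.36), Kif11 at 0.432 CPM (others 2.00 to 2.22) and Plk1 at 0.324 CPM (others 0.648 to 0.699). Its Cdkn1a stood at 173.7 CPM (others 39.1 to 52.9), which puts its summed G1 genes at 431.2 CPM (others 299.1 to 305.3). Vehicle mouse 3 had the lowest Mcm2, at 3.48 CPM (others 4.86 to 5.02).

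In the cotadutide group, mouse 3 had the highest T and NK cell markers, at 21.2 CPM (others 2.48 to 4.53), the highest B cell markers, at 35.8 CPM (others 1.70 to 2.89), and the highest endothelial markers, at 739.2 CPM (others 566.3 to 583.9). Its mitosis sum of 14.9 CPM was within the range of the other cotadutide mice. Mouse 4 had the highest Bub1, at 0.275 CPM (others 0.0641 to 0.103), which rests on 5 counts. Mouse 5 had the lowest Mcm7, at 20.9 CPM (others 22.3 to 22.8), still above every vehicle mouse. With vehicle mouse 4 and cotadutide mouse 3 both left out, edgeR called 16 of 18 tested mitosis genes lower and none higher. All tested genes had 9.55% lower and 12.7% higher in that fit, which was chosen after seeing the data. Its smaller vehicle group let Cenpf and Hmmr pass the low-count filter.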

How the results depend on the processing

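Of the summed levels and named genes, 5 changed sign under an alternative: the G1 sum, Ube2c, and the uncalled Ccnd2, Cdk2 and Cdkn1b. Leaving out 1 library at a time, edgeR called 42 to 2116 genes higher and 92 to 1724 lower (1373 and 1378 with all mice), 1 to 4 members higher and 2 to 23 lower, and 0 to 10 further pathway genes higher and 1 to 25 lower. The summed log2 ratios ranged from -1.59 to -1.25 for mitosis, -0.16 to -0.09 for replication and 0.37 to 0.57 for G1. As a mean over genes of log2(CPM + 0.5), the mitosis difference was -0.88 (-1.39 as a ratio of sums) and the replication difference -0.27 (-0.12 as a ratio of sums), and the G1 difference reversed to -0.068 (0.427 as a ratio of sums), since a sum weighs Cdkn1a and Cdkn2c most. With no filter on low counts edgeR called 900 genes higher (3.15%) and 4.42% of all genes lower, and 5 of 135 pathway genes higher and 21 lower. Without vehicle mouse 4 and cotadutide mouse 3 together it called 22 pathway genes lower. With the muscle or the macrophage score as a covariate it called 0 genes, members and pathway genes in either direction, with 2333 and 1605 genes at an unadjusted p under 0.05, and Ube2c reversed to a log2 fold change of 0.10 with the muscle score. Ccnd2 (-0.21 with all mice) reversed to 0.19 with the muscle score and 0.24 with the macrophage score, Cdk2 (0.24) to -0.028 with the macrophage score, and Cdkn1b (-0.04) to 0.038 without vehicle mouse 3 (-0.101 to 0.038 over the fits that leave out 1 library). The median of the G1 genes lay between -0.043 and 0.031 over the fits, so it has no direction. The cause of the other changes was not tested. A block for mouse number, which does not pair these mice (1 of 4 correlations over 0.1), left 516 genes higher, 768 lower and 2 pathway genes higher. No member called with all mice was called in the opposite direction under any setting. Depth limits the mitosis genes most, since their means are 4.78 to 55.9 counts per library.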
